A study of Mus musculus with 82 samples.

Results

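The late phase after a whole-body X-ray dose of 1 Gy was examined in skin biopsies of d21 and d28, which were compared with biopsies of sham mice (0 Gy) of the same days. All arrays that the sample labels give with these doses and time points (TPs) were used, which made 12 of the 82 arrays of the series: 8 after 1 Gy, from 4 mice (M006, M007, M008 and M009), and 4 of sham, from 2 mice (M002 and M003). The mice were C57BL/6j males that arrived at 8 weeks of age, and each was biopsied on both days, after earlier biopsies of its shaved back skin in the first week. Sham mice went through the exposure procedure without radiation and were anesthetized and biopsied like the others. Arrays of the same mouse are not independent, and 2 sham mice give little measure of the spread between unexposed animals. Biopsy RNA carried Cy5 and was hybridized to an Agilent whole-genome mouse array together with a universal mouse reference RNA that carried Cy3. The dyes were not swapped. A log2 ratio below is that of biopsy over reference on 1 array, and a log2 fold change is the difference between 2 groups of such ratios as fitted by limma, with time point as a term and the mouse as a random block.

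Ionizing radiation breaks DNA and activates p53, which in turn drives cell cycle inhibitors such as Cdkn1a. Skin combines a renewing epidermis, hair follicles that cycle between growth and rest, a dermis of fibroblasts and collagen, resident macrophages, mast cells and dendritic cells, and the blood in its vessels. Collagen binds glycoprotein 6 (GP6) on platelets, and collagen genes make up most of what the study followed as GP6 signaling and intrinsic prothrombin activation. The comparison asks how much of a response to a low sublethal dose remained in the skin weeks later.

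In Cy5, 33.1% to 61.4% of an array's probes gave signal clearly over background, with a median of 50.9% for sham arrays and 53.7% for 1 Gy arrays. The precision of every mean is limited by the number of mice. The 12 arrays lay on 7 slides, were read on 1 scanner model and fell into 2 scan days, each with 2 sham arrays and 4 arrays of 1 Gy. Scan day went largely with the time point, since both sham arrays of d21 were read on day 1 and both of d28 on day 2, and after 1 Gy the exceptions were the d21 array of M006 (day 2) and the d28 array of M008 (day 1). The time change in sham and scan day thus cannot be told apart from sham arrays alone, and a difference between doses within a scan day mixes time points. Both groups shared a slide only on slide 11 (d28) and slide 15 (d21). The d21 array of M007 stood apart, with a mean correlation of 0.595 with the other arrays against 0.699 to 0.81 for those (0.883 against 0.9 to 0.941 in the deposited values). Skin markers were present throughout. The log2 ratio of Krt5, a keratin of basal keratinocytes, was between 4.02 and 5.0 on all arrays, that of Lor, the loricrin of the cornified layer, between 6.76 and 8.79 on the 11 arrays with a value, and that of Dcn, the decorin of dermal fibroblasts, between 1.22 and 6.23. In bulk tissue, fewer cells of a type and less RNA per cell cannot be told apart.

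**Figure D1:**
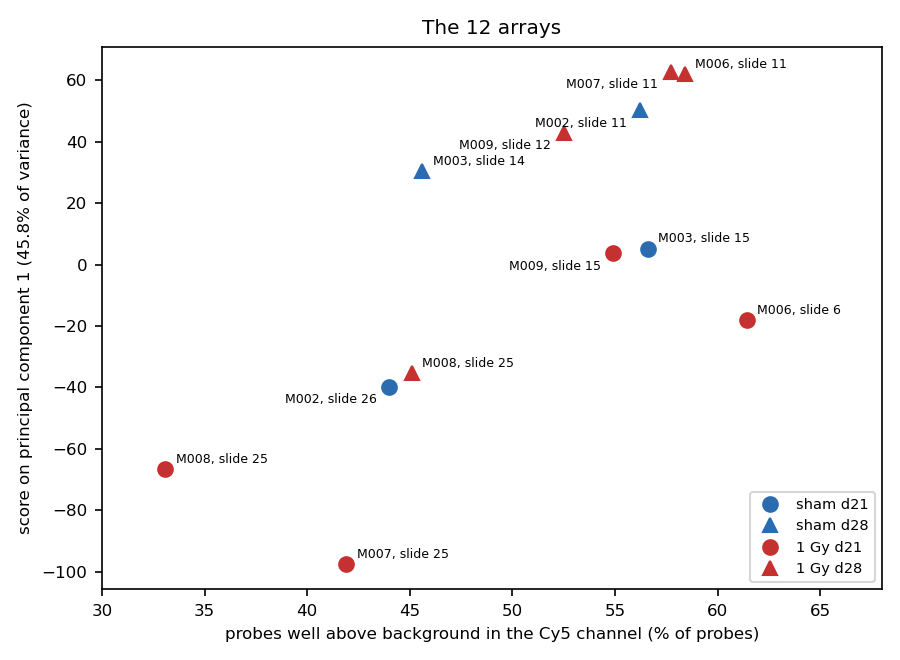
Score on principal component 1 of the log2 ratios (45.8% of the variance) against the percent of probes well above background in Cy5, 1 point per array, with sham in blue, 1 Gy in red, d21 as circles and d28 as triangles. The 4 arrays of slides 25 and 26 (3 of 1 Gy and 1 of sham) have scores of -97.61 to -35.32, and sham and 1 Gy arrays are mixed along both axes.

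At 1 Gy against sham over d21 and d28, no gene passed both thresholds of a significantly differentially transcribed gene (SDTG), which are an adjusted p below 0.05 and a change by 2-fold or more. Of 23101 probes tested, limma called 0 (0%), and the smallest adjusted p was 1. At an unadjusted p under 0.05 and the same fold change, 9 probes (0.039%) were higher and 16 (0.0693%) were lower after 1 Gy. In all, 1.95% of probes had an unadjusted p under 0.05, fewer than the 5% that even p-values would give. The deposited normalized values also gave 0 SDTGs, with a smallest adjusted p of 0.105, 6 probes higher (0.0256%) and 65 lower (0.277%) at the unadjusted threshold, and 10.5% of probes at an unadjusted p under 0.05. The study itself lists SDTGs after 1 Gy on single days of this phase. Among them are COL1A1 and KLK7 (lower at d28), COL1A2 and COL3A1 (lower at d21) and HEBP2 (higher at d21). The study does not state how its model treated arrays of the same mouse, so the 2 results are not of the same test. With 4 mice against 2, an exact permutation test of a single gene over mice cannot go below 0.0667, so the values that follow describe these mice and are not calls.

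Genes were then ranked by unadjusted p among those with a fold of at least 2 in the same direction on both days, and 12 per direction are named. Among the 12 on the lower side were Fcer1g and Wfdc17. Fcer1g encodes the gamma chain that carries the signal of GP6 in platelets and of Fc receptors in macrophages and mast cells. Its log2 ratio on the sham arrays was 0.68 and 2.31 at d21 and 1.03 and 1.86 at d28, and after 1 Gy it was 0.15, -0.36, -0.21 and 1.41 at d21 and 0.29, -0.04, 0.10 and 0.52 at d28. Only the d21 array of M009 lay among the sham arrays. The log2 fold change was -1.24 (SE 0.362, n = 8 and 4 arrays, limma adjusted p = 1), and it was -0.91 within slide 11 and -0.90 within slide 15. Wfdc17, a secreted protein of activated macrophages, had log2 ratios of 3.38 and 4.46 at d21 and 5.12 and 5.09 at d28 in sham, and of 1.3 to 4.46 (median 3.35) after 1 Gy. In this gene 3 of the 8 arrays of 1 Gy lay within the range of sham, and the log2 fold change was -1.23 (SE 0.399, adjusted p = 1).

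The other 10 genes of the lower side had varied roles. Bgn, the proteoglycan biglycan, was at -0.55 and 3.00 at d21 and at -0.79 and 1.57 at d28 in sham, against -1.78 to 1.66 (median -1.01) after 1 Gy, a log2 fold change of -1.42 (SE 0.678). Here the high sham values were both of M003, and without that mouse the log2 fold change was 0.06. Trim6, a ubiquitin ligase of the interferon pathway, showed the same, with 3.25 and 3.19 in M003 and 0.39 and 0.43 in M002, and its log2 fold change of -1.31 (SE 0.585) became 0.10 without M003. Ogn, another small proteoglycan, had a log2 fold change of -1.03 (SE 0.496), and Rnase4, a secreted ribonuclease, of -1.02 (SE 0.468). Ifitm6, an interferon-induced membrane protein of myeloid cells, ranged from 2.50 to 6.87 in sham and from 0.05 to 4.67 after 1 Gy, with a log2 fold change of -1.68 (SE 0.788). Gabarap, an autophagy protein, was at 0.21, 2.38, 0.63 and 1.90 in sham and at -0.28 to 1.60 (median -0.02) after 1 Gy, with a log2 fold change of -1.04 (SE 0.424). The steroid hydroxylase Cyp17a1 (-1.05, SE 0.347), the muscle heat shock protein Hspb2 (-1.0, SE 0.345), Mlf1 (-1.08, SE 0.418, but 0.05 with slide as a fixed term) and the fatty acid carrier Fabp3 (-1.19, SE 0.488) complete the 12 as log2 fold changes.

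On the higher side, the collagen gene Col18a1, which is also in both pathway lists of the study, had the lowest unadjusted p of the genes so ranked. Its log2 ratio in sham was 0.58 and -0.24 at d21 and -0.82 and -2.05 at d28, against -0.79 to 1.81 (median 0.29) on the 7 arrays of 1 Gy with a value. The ranges overlapped, and the log2 fold change was 1.10 (SE 0.322, n = 7 and 4 arrays, adjusted p = 1), with 0.28 for the gene's other probe. Fzd10, a Wnt receptor, was at 3.67, 2.93, 3.62 and 2.06 in sham and at 3.38 to 4.93 (median 4.14) after 1 Gy, a log2 fold change of 1.03 (SE 0.346), with an exact permutation p of 0.0667 over mice, the smallest that can be reached. The other probe of Fzd10 gave 0.25. Cebpb, a transcription factor of myeloid cells and keratinocytes, was at -1.82, -0.89 and -2.29 on the 3 sham arrays with a value and at -1.54 to 1.51 (median 0.03) after 1 Gy. Its log2 fold change was 1.58 (SE 0.644), and 0.06 within slide 11 and 0.28 within slide 15. The taurine transporter Slc6a6 (1.14, SE 0.393), the zinc finger factor Casz1 (1.04, SE 0.440), the small GTPase Rnd3 (1.07, SE 0.470), the adaptor Grb7 (1.08, SE 0.494), the acetyl-CoA carboxylase Acacb (1.16, SE 0.549), the potassium channel Kcna7 (1.11, SE 0.583), the endothelial matrix protein Mmrn2 (1.07, SE 0.570, but -0.09 without M003), the olfactory receptor Olfr430 (1.38, SE 0.784) and Lrrc71 (1.31, SE 0.785) followed as log2 fold changes. For none of the 24 genes were all arrays of 1 group beyond all arrays of the other, where 13 of 13067 genes (0.0995%) had all 1 Gy arrays above sham and 7 (0.0536%) had all of them below.

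**Figure D2:**
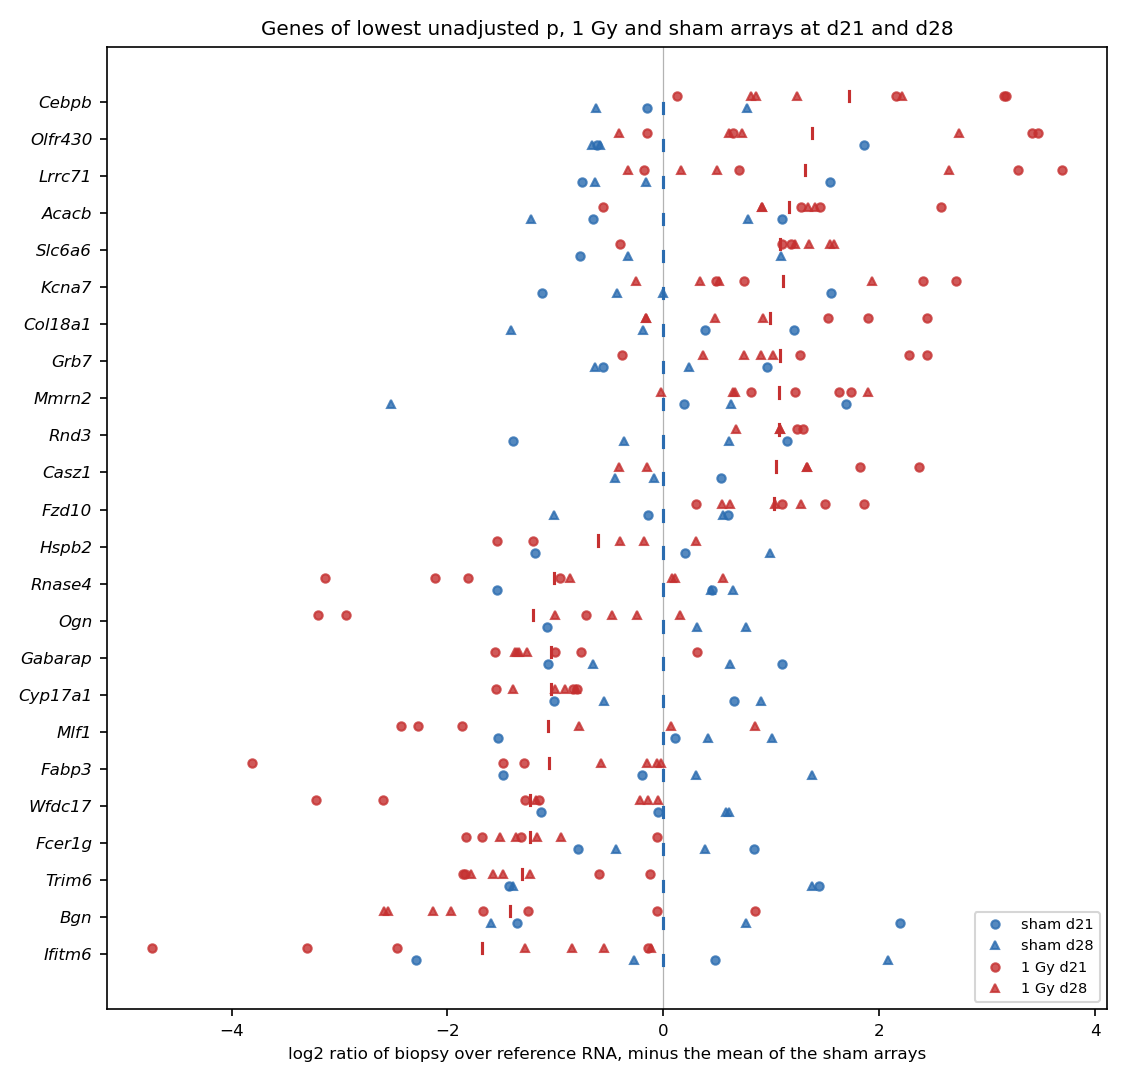
Log2 ratio of biopsy over reference minus the mean of the sham arrays, for 12 genes in each direction, 1 point per array (sham blue, 1 Gy red, circles d21, triangles d28), with a bar at each group mean. The genes are those of lowest unadjusted p among genes with a fold of at least 2 in the same direction on both days. Sham and 1 Gy arrays overlap in every gene, and in Ifitm6, the gene with the lowest fold change, sham ranges from 2.50 to 6.87 before the sham mean is subtracted.

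In the deposited values, 11 of the 12 higher and all 12 lower genes had the same sign (the exception was Casz1). There, Fcer1g was between 0.84 and 1.41 in sham and between 0.18 and 0.83 after 1 Gy, so that all 1 Gy arrays lay below all sham arrays, with a log2 fold change of -0.59 (SE 0.143, adjusted p = 0.3). Cebpb was at most -0.78 in sham and at least -0.68 after 1 Gy, a log2 fold change of 0.81 (SE 0.190, adjusted p = 0.277). Wfdc17 ranged from 4.08 to 5.58 in sham and from 2.61 to 4.51 after 1 Gy, and its log2 fold change of -1.31 (SE 0.174) had the smallest adjusted p of that table, 0.105. Ccl8, a chemokine that attracts monocytes, reached the same adjusted p. Its deposited values were 7.45, 7.59, 7.65 and 8.90 in sham and 5.80 to 7.23 (median 6.35) after 1 Gy, all of them below sham, for a log2 fold change of -1.45 (SE 0.213). In the scanner values, where outlier flags left 3 sham arrays and 4 arrays of 1 Gy, Ccl8 had a log2 fold change of -0.55 (SE 0.300, adjusted p = 1). Without sham mouse M002, 6 genes fell after 1 Gy in the deposited values: Serping1, the C1 inhibitor (log2 fold change -1.69, SE 0.147, adjusted p = 0.00644), Bgn, Fxyd3, the protease Ctsk, Ccl8 and Trim6, with M003 then the only sham mouse and assumed to vary as the others do. Of the 24 genes, 2 had groups that did not overlap in the deposited values (Cebpb and Fcer1g), where 35 of all genes (0.268%) had all 1 Gy arrays above sham and 39 (0.298%) had all of them below.

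**Figure D3:**
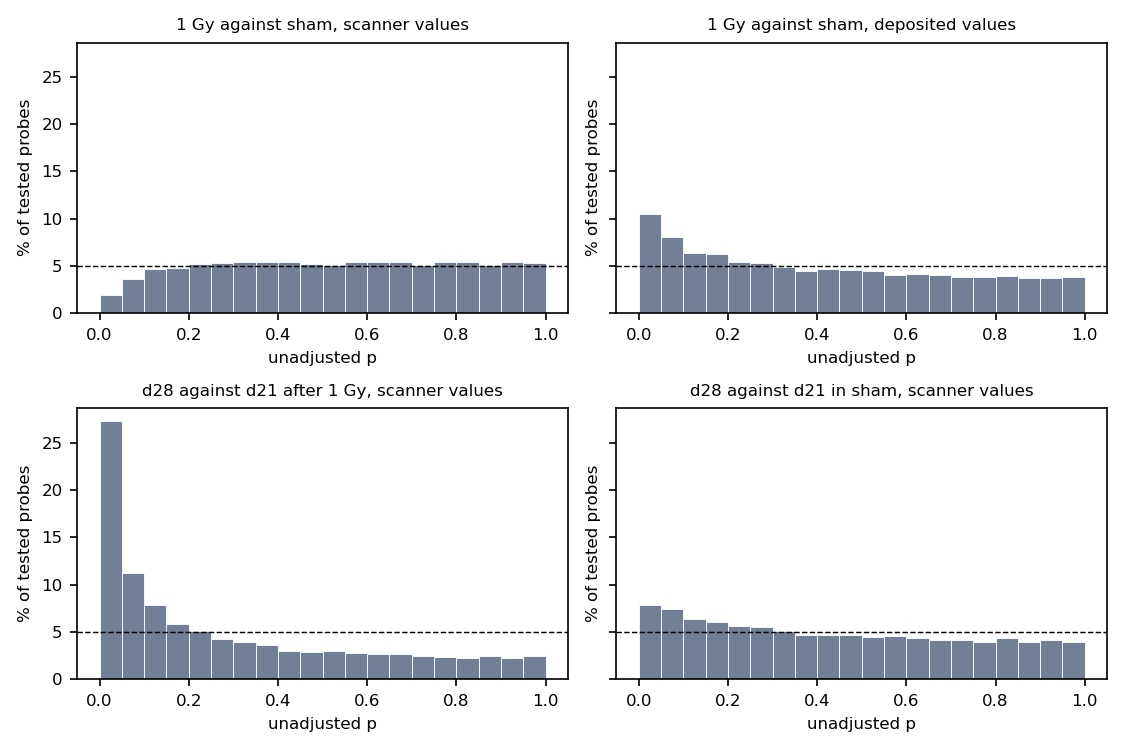
Unadjusted p-values of limma in 20 bins of equal width, as percent of the probes tested, with a dashed line at the 5% that each bin would hold if p-values were even. The first bin holds 1.95% of probes for 1 Gy against sham in the scanner values, 10.5% in the deposited values, 27.3% for d28 against d21 after 1 Gy and 7.87% for d28 against d21 in sham.

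Lists of genes were read by their counts and medians, beside 47.4% of 13067 genes below 0 (46.2% in the deposited values) and a median of 0.01 over all genes. Macrophage genes were one-sided: the log2 fold changes of all 12 members tested were negative, with a median of -0.34 and values from -0.42 to -0.10, and in the deposited values 11 of 12 were negative (median -0.47). None of them passed an unadjusted p of 0.05 in the scanner values (168 of all genes, 1.29%, were lower at that threshold) and 5 did in the deposited values (5.37% of all genes). Csf1r, the receptor that macrophages need to survive, was at 1.66, 2.43, 2.02 and 1.42 in sham and at 0.76 to 2.01 (median 1.69) after 1 Gy. The mean log2 ratio of the list was 2.26 ± 0.62 (SD, n = 4 arrays) in sham and 1.99 ± 0.84 (n = 8) after 1 Gy, which is a difference within the spread between arrays. The median of the list lay between -0.60 (without M003) and -0.05 (without M008) when 1 mouse was left out. The list difference was -0.73 on scan day 1 and 0.17 on scan day 2 in the scanner values, and -0.42 and -0.37 in the deposited values.

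Lists of tissue layers under the epidermis were also more often negative than positive. Of the skeletal muscle genes, which stand for the thin muscle sheet of mouse skin, 10 of 15 were negative (median -0.38), and of the adipocyte genes 10 of 13 were (median -0.17), as were 12 of 16 genes of fibroblasts and matrix (median -0.23). In the deposited values the medians were -0.89, -0.70 and -0.31. With 1 mouse left out, the muscle median lay between -0.52 (without M003) and -0.18 (without M007), the adipocyte median between -0.40 (without M003) and -0.13 (without M008), and the fibroblast median between -0.43 (without M006) and -0.02 (without M008). Among these, Postn, a matrix protein of wound and follicle fibroblasts, had a log2 fold change of -1.0 (SE 0.515), Lum, the proteoglycan lumican, of -0.89 (SE 0.490), Dcn of -1.15 (SE 0.785), Tnnc2, a fast muscle troponin, of -0.98 (SE 0.557), and Retn, the adipocyte hormone resistin, of -0.93 (SE 0.589), each with an adjusted p of 1. Dcn shows how wide the arrays were spread, with 3.31, 6.23, 5.58 and 5.45 in sham and 1.22 to 5.85 (median 4.38) after 1 Gy. Of the genes of dendritic and Langerhans cells, 7 of 10 were negative (median -0.31, and -0.05 without M002), with Cd74, the invariant chain, at a log2 fold change of -0.65 (SE 0.411) and H2-Ab1 at -0.50 (SE 0.309).

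On the other side, hair shaft keratins and follicle matrix genes had the highest median of the 34 lists, 0.50, with 14 of 17 members positive, but 0.05 in the deposited values and 0.12 without M007. Immediate early genes, the first transcription factors that cells switch on after a stimulus, had a median of 0.36 (0.16 without M002) with 12 of 15 positive, and 0.40 with all 15 positive in the deposited values, where 5 of them had an unadjusted p under 0.05 (6.34% of all genes were higher at that threshold). Klf4, a factor of the upper epidermis, had the lowest unadjusted p among them, with a log2 fold change of 0.84 (SE 0.274, adjusted p = 1) and 0.36 in the deposited values. Endothelial genes had a median of 0.26 against -0.0022 in the deposited values, a median whose direction turned with 1 sham mouse (-0.27 without M003, 0.77 without M002). Erythroid genes had 0.42 against 0.08, and 0.25 to 0.62 over the mice left out.

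**Figure D4:**
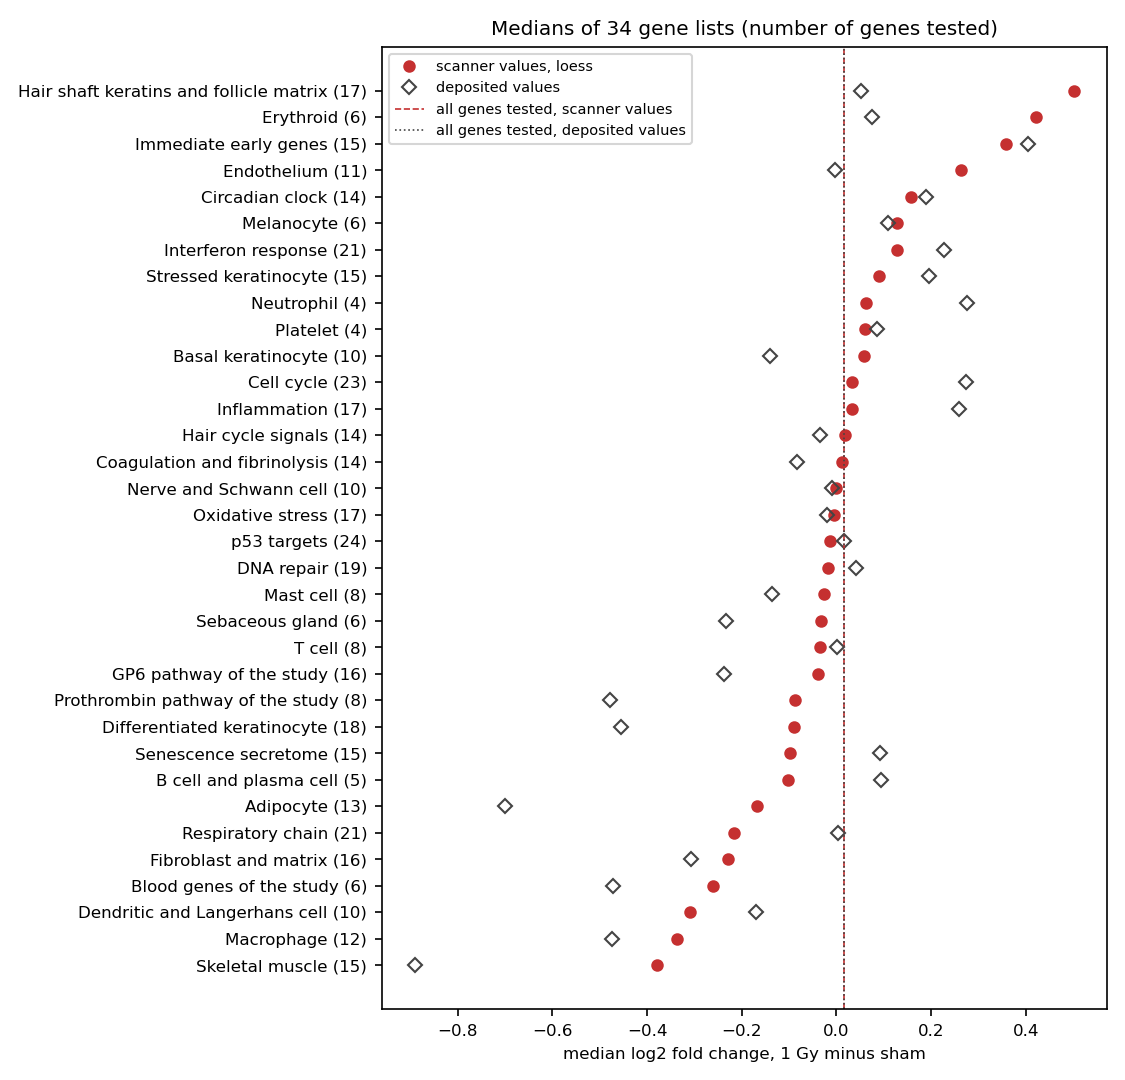
Median log2 fold change of 1 Gy against sham over d21 and d28 for each of 34 gene lists, in the scanner values (filled) and the deposited values (open), with the number of genes tested in brackets and the medians of all genes as vertical lines, which coincide. Skeletal muscle and macrophage genes have the lowest medians in the scanner values (-0.38 and -0.34), and hair shaft keratins the highest (0.50).

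The pathways followed by the study had medians near that of all genes in the scanner values and lower ones in the deposited values. The lists were chosen by the study on arrays of this series, so their direction here is not independent evidence. Of the 16 genes of the GP6 list that were tested, 9 were negative, with a median of -0.04 (deposited values, 11 of 16, median -0.24), and of the 8 genes of the prothrombin list 6 were, with a median of -0.09 (deposited values, 7 of 8, median -0.48). Leaving out 1 mouse turned both medians, to 0.06 for GP6 without M008 (-0.25 without M003) and to 0.07 for prothrombin without M002 (-0.22 without M006). Col1a2, a chain of the main dermal collagen, was at 3.70 and 6.29 at d21 and at 4.23 and 3.05 at d28 in sham, and at 2.26 to 5.0 (median 3.58) after 1 Gy, for a log2 fold change of -0.75 (SE 0.676). Col5a2 had -0.96 (SE 0.673), Col6a1 -0.33 (SE 0.347) and Col3a1 -0.30 (SE 0.360). Gp6 itself had a log2 fold change of -0.07 (SE 0.133), with log2 ratios of 0.44, 0.30, 0.27 and 0.64 in sham and 0.16 to 0.60 after 1 Gy. Of the blood genes of the study, 4 of 6 were negative (median -0.26, but 0.0052 without M008), among them the beta-globin gene Hbb-bt at -0.54 (SE 0.444), which shares its sequence in large part with other beta-globin genes. Gp1bb, a platelet adhesion receptor chain, had a log2 fold change of 0.52 (SE 0.174, adjusted p = 1).

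Genes of the damage response had medians near 0 in the scanner values. Of 24 p53 targets, 12 were negative and 12 positive (median -0.01). Cdkn1a, the p53-driven cell cycle inhibitor, had log2 ratios of 0.71, 1.94, -0.43 and 1.18 in sham and of -1.10 to 2.06 (median 0.41) after 1 Gy, with a log2 fold change of -0.47 (SE 0.412). Ccng1 had -1.0 (SE 0.495) and Plk2 0.61 (SE 0.482). DNA repair genes had a median of -0.02, and H2ax, the histone marked at DNA breaks, a log2 fold change of 0.68 (SE 0.298, adjusted p = 1). Cell cycle genes had a median of 0.03 with 15 of 23 positive, and of 0.27 with all 23 positive in the deposited values, where 10 were higher at an unadjusted p under 0.05 (6.34% of all genes were). With the scanner software's own ratio, 0.911% of genes were higher and 1.06% lower with unadjusted p-values below 0.05, and limma called 0 probes there as well.

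Of 14 clock genes, 10 were positive and 4 negative, with a median of 0.16 (0.19 in the deposited values, with 11 positive). At an unadjusted p under 0.05, 2 were higher (1.16% of all genes were) and 1 was lower. Dbp, an output gene of the circadian clock, was at -0.83, -1.17, -0.48 and -1.03 in sham and at -1.23 to 0.38 (median 0.12) after 1 Gy. Its log2 fold change was 0.77 (SE 0.257), and 0.88 in the deposited values (SE 0.179, adjusted p = 0.22). Per1, a repressor of the clock, was at -0.84, -1.40, -1.10 and -1.72 in sham and at -1.09 to 0.22 (median -0.66) after 1 Gy, with a log2 fold change of 0.72 (SE 0.269). Arntl, which with its partner Clock activates Per1, was at 0.62, 1.24, 0.71 and 0.86 in sham and at 0.06 to 0.66 (median 0.46) after 1 Gy, with a log2 fold change of -0.46 (SE 0.169). In Arntl, 2 arrays of 1 Gy and 1 of sham lay within the range of the other group, and none of the 3 genes passed the adjusted threshold (adjusted p = 1 in the scanner values). The hour of biopsy is not in the labels, and its part in these values was not tested.

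The comparison was then made at each time point. For each day, and for the dose differences and the change from the first week below, the lowest unadjusted p was sought among genes with a fold of at least 2. At d21 limma called 0 of 23101 probes (0%; at the unadjusted thresholds, 38 or 0.164% higher and 69 or 0.299% lower), and the genes of lowest unadjusted p were Lce3c, a late cornified envelope protein (log2 fold change 2.36, SE 0.610), Btg1 (1.48, SE 0.368) and Ndufa8 (1.10, SE 0.298) on the higher side and Tmed7 (-1.23, SE 0.328), Uqcrc2 (-1.53, SE 0.364) and Fkbp3 (-1.47, SE 0.372) on the lower side. At d28 it called 0 as well (0%; 24 or 0.104% higher and 42 or 0.182% lower), with Efs (1.67, SE 0.328), Alas2 (2.38, SE 0.605) and Fasn (1.07, SE 0.293) on the higher side and Snrpe (-1.69, SE 0.536), the follicle keratin Krt75 (-1.29, SE 0.422) and Slirp (-1.20, SE 0.416) on the lower side. Alas2, which starts heme synthesis in red cell precursors, was at 1.71, 1.33, 1.80 and 2.49 in sham, at 1.94, 1.23, -0.30 and 2.02 at d21 after 1 Gy, and at 5.39, 4.16, 3.73 and 4.84 at d28 after 1 Gy. All 4 arrays of d28 after 1 Gy were thus above all other arrays, while the adjusted p was 1. The d28 result moved with single mice, with 8 probes lower without M002 (4 of them with a gene symbol, Rims1, Rasgrp4, Caly and Trub1), 3 lower without M003 and 1 higher without M008 (Kap). With a sham mouse left out, the sham group of a day is 1 array, which is assumed to vary as the others do. The difference of the 1 Gy effect between d28 and d21, tested as an interaction, gave 0 probes (0%; at the unadjusted thresholds, 106 or 0.459% above 0 and 56 or 0.242% below). Macrophage genes were negative in all 12 cases at d21 (median -0.81) and in 3 of 12 at d28 (median 0.10), where 47.7% of all genes were negative on either day. The macrophage median at d21 was negative in all 21 settings run, but at d28 it was 0.92 without M002, -0.50 without M003 and -0.16 in the deposited values, so its direction at d28 turned with 1 sham mouse and with the table used. Of the genes of differentiated keratinocytes, 17 of 18 were negative at d28 (median -0.45) and 4 of 18 at d21 (median 0.28). The median at d28 was negative in all 21 settings, and lay between -0.64 (without M009) and -0.23 (without M008) when 1 mouse was left out. That at d21 was -0.03 without M002, 0.58 without M003 and -0.16 in the deposited values.

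Among the 34 lists, the mean of the hair shaft keratins had the widest range over the 12 arrays (5.35 on the log2 scale). Krt33a, a keratin of the hair cortex, had a log2 ratio of 6.56 in M006 and 8.57 in M007 at d21, against 0.20 in M008 and 0.12 in M009 at d21, 0.42 to 0.89 at d28 after 1 Gy, and -0.13 to 2.66 in sham. The mean of the 17 genes tested followed the same 2 arrays, at 3.33 in M006 and 5.38 in M007 at d21 and between 0.04 and 1.43 on the other arrays. The list median of the effect of 1 Gy was 1.39 at d21 (17 of 17 positive) and -0.45 at d28 (3 of 17 positive), and the interaction was negative in all 17, where 50% of all genes were (median -2.17). At an unadjusted p under 0.05, 1 of the 17 interactions passed (0.543% of all genes were lower at that threshold) and 0 passed after adjustment by limma. Without M007 the list median at d21 was 0.57 and that of the interaction -1.05. The high values thus belong to single biopsies of 2 of the 4 mice.

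**Figure D5:**
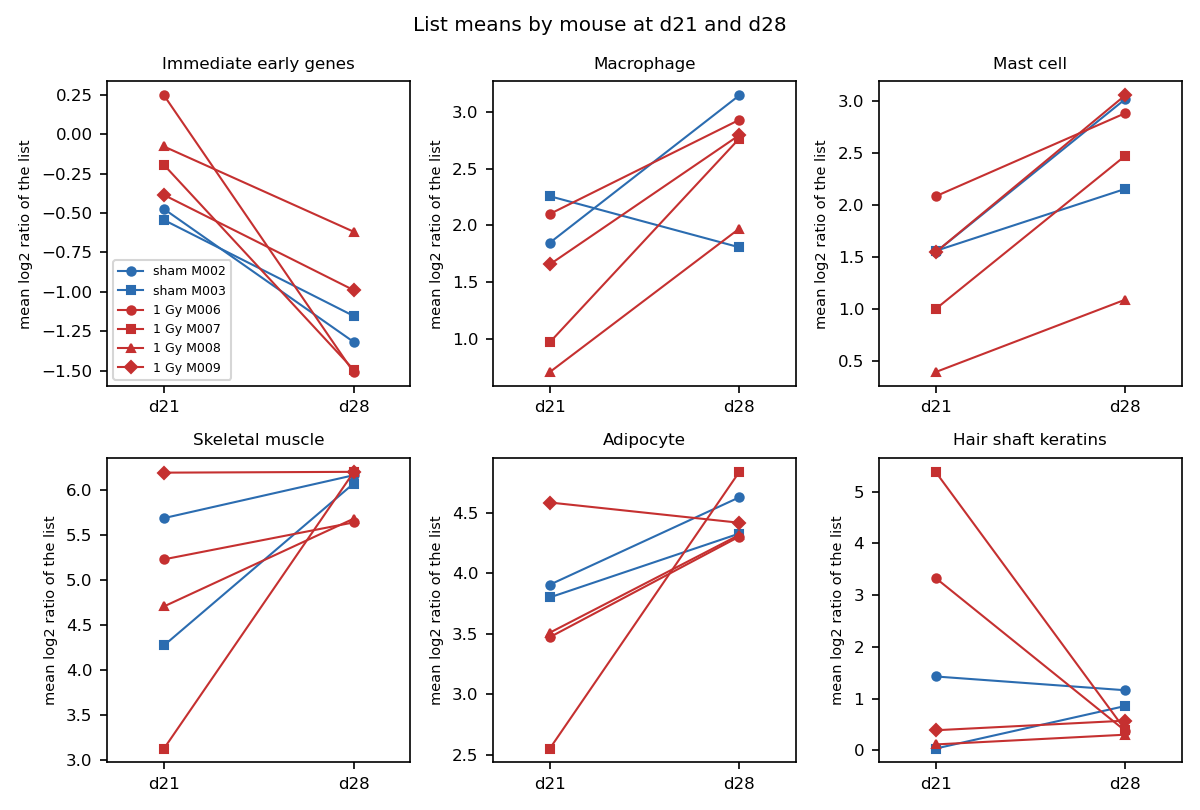
Mean log2 ratio of 6 gene lists at d21 and d28, 1 line per mouse, with sham in blue and 1 Gy in red. Immediate early genes are lower at d28 in all 6 mice in these scanner values, and hair shaft keratins are high only at d21 in M006 and M007.

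Between d21 and d28 in the skin of the 1 Gy mice, 2 of 23101 probes (0.00866%) passed both thresholds in limma. Egr1, an immediate early transcription factor, fell from -0.21, -0.86, -0.98 and -0.82 at d21 to -3.83, -3.92, -2.73 and -2.96 at d28 (M006 to M009), by 2.64 on the log2 scale (SE 0.317, adjusted p = 0.0469). In the sham mice it was at -1.97 and -0.90 at d21 and at -3.31 and -3.50 at d28, a log2 fold change of -1.97 (SE 0.449, adjusted p = 0.627). Fcna, a ficolin of the lectin complement pathway made by macrophages, rose from -0.73, -0.28, -0.32 and 0.04 to 1.17, 1.08, 1.29 and 0.98, a log2 fold change of 1.45 (SE 0.173, adjusted p = 0.0469), against 0.51 in sham (SE 0.245, adjusted p = 0.634). The interaction had an adjusted p of 1 for both genes, so the change was not shown to differ from sham. With 1 mouse left out, 0 probes were called without M002, M003, M006, M007 or M009, and 1189 (5.06%) without M008, where both genes had an adjusted p of 0.0345. Neither call held with scan day as a fixed term, where the adjusted p was 0.228 for Egr1 and 0.0569 for Fcna, with log2 fold changes of -2.60 and 1.64. Both arrays of M008 were read on 1 slide on the same scan day, and within them Egr1 differed by -1.75 and Fcna by 1.61.

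Gene lists were one-sided as well. Of 15 immediate early genes, 14 were negative at d28 against d21 after 1 Gy (51.5% of all genes were, as in sham), 12 of them at an unadjusted p under 0.05 (16.3% of all genes), with a median of -0.99, and in sham all 15 were negative with a median of -0.73. In the deposited values 12 of 15 were negative in sham (median -0.43), and the list mean of M002 differed by 0.01 between the days, against -1.09 in M003 and -1.22 to -0.55 in the 1 Gy mice. Fos had a log2 fold change of -2.53 (SE 0.597, adjusted p = 0.0664) after 1 Gy. All 12 macrophage genes were positive (9 at an unadjusted p under 0.05, where 14.6% of all genes were, median 1.24), as were all 8 mast cell genes (median 1.17) and all 15 skeletal muscle genes (median 1.17), against medians of 0.37, 0.93 and 1.07 in sham. Without M002 the medians in sham were -0.55, 0.25 and 1.53, and without M003 1.17, 1.40 and 0.48. With scan day as a term the medians in sham were -0.53, -0.33 and 0.70, and those after 1 Gy 0.92, 0.54 and 0.93. Scan day went with the time point in all sham arrays, so that term was estimated from the 1 Gy arrays and carried over to sham. The muscle median after 1 Gy was 0.45 without M007, the mouse whose list mean differed by 3.07 between the days, against 0.41, 0.97 and 0.01 in M006, M008 and M009. In sham mouse M003 the mean of the macrophage list was 0.45 lower at d28 than at d21, and in the other 5 mice it was 0.83 to 1.80 higher. Mrc1, the mannose receptor of tissue macrophages, was at 3.53, 1.27, 0.86 and 2.93 at d21 after 1 Gy and at 5.49, 5.20, 3.38 and 4.71 at d28. Cpa3, a protease of mast cells, was at 4.07, 1.38, 0.57 and 2.85 and then at 5.32, 5.27, 2.27 and 5.49. Both genes were higher at d28 in each of the 4 mice. The muscle genes Cmya5 (log2 fold change 3.13, SE 0.347) and Myot (5.79, SE 0.502) had an adjusted p of 0.058 each after 1 Gy, and Rnpepl1 (-2.03, SE 0.272) and Prkaca (-1.78, SE 0.231) the same on the lower side, each with values missing on some arrays. The share of probes above background was higher at d28 than at d21 in M007 (57.7% against 41.9%) and M008 (45.1% against 33.1%) and lower in M006 (58.4% against 61.4%) and M009 (52.5% against 54.9%), while the macrophage and mast cell means were higher at d28 in all 4, and the part of that share in these lists was not tested.

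In the deposited values, 414 probes (1.77%) passed both thresholds between d21 and d28 after 1 Gy, and 1 (0.00426%) in sham. The count after 1 Gy was 100 without M007 and 164 without M009, and that in sham 121 without M002. The 303 genes among them were 178 higher (1.36% of genes) and 125 lower (0.957%) at d28. All 303 were tested in the scanner values, where 293 had the same sign. In sham, 296 of the 303 genes changed in the same direction between the days. The highest were Mstn, the muscle growth inhibitor myostatin (log2 fold change 4.12, SE 0.870, adjusted p = 0.0139), Pon1, a serum esterase (3.14, SE 0.461), Ppp1r3a, a muscle glycogen regulator (2.79, SE 0.598), and Ddit4l, a stress-induced inhibitor of mTOR (2.60, SE 0.765). The lowest were Fos (-2.56, SE 0.441, adjusted p = 0.00711), the hair keratin-associated Krtap3-2 (-2.16, SE 0.466), Egr1 (-2.15, SE 0.311) and the cornified envelope gene Lce1g (-2.05, SE 0.376). By list, 5 of 15 immediate early genes fell (Fos, Egr1, Junb, Dusp1 and Ier2) and 4 of 18 genes of differentiated keratinocytes fell (Lce3c, Krt1, Cdsn and Tgm1), while 2 of 12 macrophage genes rose (Mrc1 and Cd163) along with the mast cell gene Cpa3, the erythroid gene Alas2 and the clock gene Nr1d2. Of the p53 targets, Ddit4l and Ccng1 rose and Cdkn1a fell. In sham the same genes had log2 fold changes of 3.22 (Ddit4l), 1.93 (Ccng1) and -0.91 (Cdkn1a), with an adjusted p over 0.05 in each case, and the interaction called 0 probes (0%; at the unadjusted thresholds, 61 or 0.26% above 0 and 50 or 0.213% below), so the time change after 1 Gy was not shown to differ from that in sham. With scan day as a term the deposited values gave 264 probes after 1 Gy and 0 in sham, where that term was again estimated from the 1 Gy arrays alone.

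The late arrays of 1 Gy were also set directly against the late arrays of 3 Gy (7 arrays of 4 mice) and 6 Gy (7 arrays of 4 mice), a difference that takes in no sham mean. The late sham arrays were still part of the fit and informed its time point term and spread. Against 3 Gy limma called 0 of 23939 probes (0%, as in the deposited values; at the unadjusted thresholds, 29 or 0.121% were higher and 113 or 0.472% lower after 1 Gy). Csrnp1 (log2 fold change -1.06, SE 0.225), the desmosome protein Dsp (-1.31, SE 0.291) and the stress factor Atf3 (-1.47, SE 0.353) had the lowest unadjusted p on the lower side, and Rnd3 (1.08, SE 0.373), the collagen gene Col1a1 (1.15, SE 0.419) and Pi16 (1.01, SE 0.367) on the higher side, with adjusted p-values of 0.489 to 0.493. Differentiated keratinocyte genes were lower than after 3 Gy in 17 of 18 cases (47.7% of all genes were), with a median of -0.80, and in 18 of 18 in the deposited values (median -0.44, where 44% of all genes were lower). Immediate early genes were lower in all 15 (median -0.32).

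Against 6 Gy limma called 0 probes as well (0%, as in the deposited values; at the unadjusted thresholds, 2 or 0.00835% were higher and 66 or 0.276% lower). All 20 interferon response genes tested had lower values in the 1 Gy mice than in the 6 Gy mice (51.9% of all genes were), 11 of them at an unadjusted p under 0.05 (3.18% of all genes), with a median of -0.74. In the deposited values 20 of 21 were lower (46% of all genes were), with a median of -0.46, and the median stayed between -0.85 and -0.46 in the 9 alternatives run. In none of these was a 6 Gy mouse left out, or slide or scan day a term. Slide 25 was the only slide with late arrays of 1 Gy and of 6 Gy, and the part of slide was not tested. The interferon-related factor Batf2 (log2 fold change -1.02, SE 0.254), the amino acid transporter Slc38a5 (-1.20, SE 0.319) and the monocyte chemokine Ccl2 (-1.10, SE 0.298) had the lowest unadjusted p, with an adjusted p of 0.943, and macrophage genes were lower in all 12 (median -0.54, but -0.34 without M008, and -0.29 with 11 of 12 lower in the deposited values). On the higher side, among genes with a fold of at least 2, Olfr430 (1.37, SE 0.646), the surfactant gene Sftpc (1.28, SE 0.607) and Galnt5 (1.12) came first, with the same adjusted p.

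All arrays of the same 6 mice at any TP were used to ask whether the late difference was already there in the first week. Their first-week sham arrays were those of M002 at hour 2, d4 and d7 and of M003 at d7 only. Sham at hour 2 and d4 was thus M002 alone, and without M002 only 1 sham array of the first week is left. Not every 1 Gy mouse had an array at each first-week TP. The change of the 1 Gy effect from the first week to d21 and d28 gave 0 of 24306 probes (0%, as in the deposited values). Col18a1 (1.51, SE 0.416), Wdr81 (1.04, SE 0.302) and Dok4 (1.51, SE 0.443) had the lowest unadjusted p among the log2 changes above 0, and Emb (-1.78, SE 0.440), Pak3 (-1.31, SE 0.380) and the follicle growth factor Fgf18 (-1.34, SE 0.434) among those below 0, each with an adjusted p of 0.999. The change was below 0 for all 15 skeletal muscle genes (median -0.80, and -1.40 in the deposited values, where 50.9% and 48.6% of all genes were below 0) and above 0 for 16 of 17 hair shaft genes (median 2.34, and 0.81 with 15 of 17 in the deposited values). None of them passed after adjustment by limma. At an unadjusted p under 0.05, 2 of the muscle genes were below 0 (1.61% of all genes were) and 9 in the deposited values (5.67%), and 5 of the hair shaft genes were above 0 (2% of all genes were) and 0 in the deposited values (4.48%). In the first week the medians of the 1 Gy effect were 0.62 for muscle (15 of 15 positive) and -2.07 for the hair shaft (0 of 17 positive), against -0.38 and 0.50 in the late phase, where 47.1% of all genes were negative in the first week (47.7% in the deposited values). Of the clock genes, 12 of 14 were positive in the first week, with a median of 0.37 (0.20 without M002, and 0.54 in the deposited values). In the deposited values the medians of muscle and hair shaft were 0.72 and -0.83 in the first week and -0.89 and 0.05 late. The muscle median of the first week was 0.36 without M003 and 1.42 without M002. In the first week itself, limma called 0 probes in the scanner values (0%; at the unadjusted thresholds, 47 or 0.193% higher and 82 or 0.337% lower) and 67 in the deposited values (0.27%). Of these 67 probes, 66 were higher after 1 Gy, among them the probes read for 58 genes (0.444%), and 1 was lower. In the scanner values, 5 probes were called lower without M002 and 1 higher without M003.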

How the data were processed

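Scanner files of 12 two-color arrays held per-spot intensity values in both channels, and the authors' protocol put the biopsy RNA in Cy5 and the reference RNA in Cy3. The deposited log10 ratio of the scanner software was used as an alternative. The submitters' processing notes name Agilent Feature Extraction 11.0.1.1, and the file headers give 10.10.1.1. The authors' normalized table was deposited as log2 values, with scale and centring unstated. Its columns had medians of -0.0079394 to -0.00021953, ran in the same direction as the scanner ratios (correlation 0.862 to 0.971 with the loess values), and had slopes of 0.712 to 1.16 on the loess values and 0.372 to 0.508 on the scanner software's ratio.

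Of 45018 spots, 1639 were controls, and 41174 probes remained. Background was corrected by normexp (offset 50), where spots whose local background the software flagged took the median local background of the array, since a few extreme values made the fit fail. This repair was chosen after seeing the data, and the version without it is an alternative. Control spots and outlier-flagged spots were left out, ratios were normalized by loess within arrays, and spots of a probe were averaged. Testing was limited to probes that the scanner software marked as clearly over background in Cy5 in 50% or more of the arrays of 1 group or the other. This left 23101 probes, of which 18548 could be given a gene symbol by the accession in the array files (13067 genes, each read from its brightest probe). Array depth is not a count, and the number of mice limits precision.

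Models were fitted with limma 3.58.1 (statmod 1.5.0, R 4.3.3), with the mouse as a random block and Benjamini-Hochberg adjustment over all tested probes. The block follows the mouse identity in the labels, and deviations of the d21 and d28 arrays of a mouse from their group means correlated at 0.193 in sham and at -0.392 to 0.415 after 1 Gy. The time change, the interaction, the dose differences and the change from the first week came from the same kind of model. Single genes were also tested by a two-sided exact permutation test over 15 regroupings of the 6 mice. Scripts were tested on simulated data. Named genes were to be the 12 highest and 12 lowest by log2 fold change among the calls, filled by those of lowest unadjusted p with a fold of at least 2 in the same direction on both days, plus up to 4 genes per list. Other comparisons took 3 genes per direction, by lowest unadjusted p among genes with a fold of at least 2 where there were no calls. Genes named outside this rule, such as Krt33a, Mrc1, Cpa3 and those called in the deposited values, were chosen after their values were seen. The comparison, its members and the 34 gene lists were chosen with earlier results of these data known. Alternatives covered normalization, background, filter, batch, block, the samples in the fit and leaving out each of the 6 sham and 1 Gy mice (no 3 Gy or 6 Gy mouse was left out). Results that name a withheld item are not reported here.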

Additional observations from a re-analysis of the deposited data

Results flagged for a closer look

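Of 116 groups of arrays tested, 9 held an array that lay apart from the rest of its group by Dixon's criterion, where chance flags about 1 in 20 groups. Among single genes, the log2 ratio of Slc6a6 was -1.608 on the d21 array of M009 (next lowest of 1 Gy -0.107), that of Olfr430 was 3.794 on the d21 array of sham mouse M002 (next highest 1.343), and that of Gabarap was 1.596 on the d21 array of M009 (next highest 0.516). Fabp3 was at -0.77 on the d21 array of M007 (next lowest 1.552), and Rnase4 at 1.885 on the d21 array of sham mouse M002 (next lowest 3.875). Among list means, the dendritic and Langerhans cell list was at 2.274 (next 1.63) and the interferon list at 0.018 (next -0.442) on the d28 array of sham mouse M002. The GP6 list was at 3.032 on the d21 array of M006 (next 2.237), and the prothrombin list at 2.886 on the d28 array of sham mouse M003 (next 3.716).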

How the results depend on the processing

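The comparison of 1 Gy with sham gave 0 calls in 34 of 35 alternatives, with the exception of the deposited values without M002 (6, so 0 to 6 over the mice left out). Comparisons at d21 and between doses, the change of the 1 Gy effect from the first week and the interaction gave 0 calls whichever of the 6 sham and 1 Gy mice was left out, and no mouse of 3 Gy or 6 Gy was left out. The effect within the first week gave 0 to 5 (M002 5, all lower, and M003 1, higher). At d28 the range was 0 to 8 (M002 8, M003 3, M008 1), and 0 to 1 in the deposited values (M003 1).

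For d28 against d21 after 1 Gy, the count of 2 became 0 with the background as deposited in flagged spots, with the scanner software's ratio, with scan day as a fixed term and without the d21 array of M007, 1 with slide as a random block, 414 in the deposited values, and 0 to 1189 over the mice left out. Without the replicate block for the mouse it was 0, as in every other comparison, and the block changed no other call. In the deposited values it was 264 with scan day as a term and 100 to 457 over the mice left out. In sham it was 1 in the deposited values and 0 to 4 over the mice left out (M002 4, M003 1), and in the deposited values 0 with scan day as a term and 0 to 121 over the mice left out (M002 121, and 0 without M003, M006, M007 or M009). The interaction gave 1 call in the deposited values with scan day as a term. Sham arrays do not inform that term, which was estimated from the 1 Gy arrays. The cause of these shifts was not tested.

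Log2 fold changes of 1 Gy against sham turned sign for Casz1 (-0.0743 in the deposited values, -0.1943 with slide as a fixed term), Mlf1 (0.0463 with slide as a fixed term), and over the mice left out for Bgn (-2.9001 without M002 to 0.0576 without M003), Mmrn2 (-0.0892 without M003 to 2.2364 without M002) and Trim6 (-2.7206 without M002 to 0.096 without M003). Leaving out M002 or M003 leaves 1 sham mouse, assumed to vary like the other groups.

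Of the list medians, 1187 moved by less than the spread between arrays and 36 by more. The macrophage, fibroblast and dendritic cell lists stayed negative, and the immediate early, clock and erythroid lists positive, in all 35 alternatives for 1 Gy against sham. These alternatives refit largely the same biopsies, so a constant sign is not replication. The hair shaft list ranged from -0.18 to 0.92 and the p53 list from -0.06 to 0.09. Dim probes limit what can be seen, since between 33.1% and 61.4% of probes lay well above background.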
